A study of Oryza sativa with 9 samples.

Results

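Jasmonates are plant hormones made from linolenic acid of plastid membranes. In plastids, 13-lipoxygenases add oxygen to the fatty acid, allene oxide synthase (AOS) and allene oxide cyclase (AOC) turn the hydroperoxide into 12-oxo-phytodienoic acid (OPDA), and in peroxisomes an OPDA reductase (OPR) and rounds of beta-oxidation shorten it to jasmonic acid. JAR1 then joins jasmonic acid to isoleucine, which gives the form that the receptor binds. Hydroperoxide lyase (HPL) takes the same 13-hydroperoxide into another branch, the green leaf volatiles, and the hormone is best known in rice for wound and pathogen responses and for spikelet development.

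The 10 genes described here were taken from the table by locus number, out of 34119 genes: 3 lipoxygenases, AOS1, AOS2, AOC, OPR7, OPR1, JAR1 and HPL3. The table holds rice locus numbers alone, and neither it nor the RefSeq table pairs them with names, so every gene name here is a name listed for its locus number. For 41 of the listed loci a RefSeq gene was found on the chromosome, under the listed name or another name taken for the locus. The JAZ genes, for instance, were looked up under TIFY names, and LOC_Os02g12680, listed as HPL1, under AOS3. Of the 40 with a single match, 38 had an implied length to compare. The 10 genes were read in RNA-seq of rice seedlings aged 14 days that had stood for 3 h in a 20% solution of PEG8000, a polymer that withdraws water from roots. Seedlings of SDG708-YFP-1, a line that overexpresses the SET-domain protein SDG708 fused to a yellow fluorescent protein (708OE_PEG), were compared with wild-type seedlings (NIP_PEG). Each genotype had 3 libraries, those of NIP_PEG each sequenced on 2 lanes, and every library came from PEG-treated plants, so the response to PEG itself cannot be read from them. A single transgenic line was sequenced, and lanes were labelled for NIP_PEG alone, so the line, the lane and the genotype cannot be told apart. The level of SDG708 itself was not analysed here. No label states whether the repeats were grown apart, and a p-value here refers to the spread among these libraries, which may be technical.

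The FPKM values (fragments per kilobase of gene, scaled to library size) implied library sizes of 13.3 to 18.1 M reads in 708OE_PEG and of 17.4 to 24.9 M in NIP_PEG. The lengths behind them were close to whole gene spans, introns included. There were 38 listed genes with an implied length and 1 RefSeq gene of the name looked up on the chromosome. Of these, 29 were within 5% of the reference span. A level in FPKM is therefore per kilobase of gene span, and genes with long introns read low beside compact ones. The lipoxygenase genes were long, at 7718, 9374 and 5590 bases, against 1999 and 2022 bases for AOS1 and AOS2. By the labels' protocols the libraries were of whole seedlings, and markers of green tissue stood far above those of root. The 9 markers of green tissue summed to an FPKM of 13703 to 14273 in 708OE_PEG and of 7077 to 8965 in NIP_PEG. In limma 9 of 9 rose, where 14.3% of all tested genes did. The 7 root markers summed to 6.28 to 6.87 in 708OE_PEG and to 5.10 to 7.88 in NIP_PEG, and 2 of them were tested. The factor gene SCR1 (LOC_Os11g03110), the most abundant, read 3.40, 3.77 and 3.52 in 708OE_PEG and 2.51, 3.94 and 3.03 in NIP_PEG (log2 fold change 0.15, adjusted p = 0.38 in limma). The silicon channel gene LSI1 (LOC_Os02g51110) read 2.39 to 2.66 in 708OE_PEG and 2.39 to 3.27 in NIP_PEG (log2 fold change -0.12, adjusted p = 0.35 in limma). The other 5 root markers averaged at most 0.366 over all libraries, and of these the silicon exporter LSI2 (LOC_Os03g01700) and the nitrate transporter NRT2.1 (LOC_Os02g02170) were at 0 throughout. Root transcript was thus scarce by these markers, and how much root RNA the libraries held was not tested.

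Under PEG, 708OE_PEG seedlings carried more transcript of the 3 lipoxygenases than NIP_PEG seedlings and less of the reductases OPR7 and OPR1. The steps between changed by less or did not pass. Of the 10 genes, 5 rose in 708OE_PEG (the 3 lipoxygenases, AOS2 and HPL3), 2 fell (OPR7 and OPR1) and AOS1, AOC and JAR1 did not pass. The test was limma on log2(FPKM + 1) over 18569 genes with Benjamini-Hochberg adjusted p below 0.05. Across all tested genes 34.3% passed, 14.3% as higher and 20.0% as lower. The 2 falls are thus at the share of all tested genes and say nothing particular of the 10. Both lost their calls without 708OE_PEG replicate 3. When scaled by the table's read totals, 3681 of all tested genes rose and 2075 fell, against 2654 and 3706 with the values as deposited. The libraries of 708OE_PEG lay all above those of NIP_PEG for 5 of the 10 genes and all below for 2, where 20.0% and 30.7% of all tested genes did so. The median log2 fold change was 0.19 over the 10 genes and -0.04 over all tested genes. The rises of the lipoxygenase LOC_Os12g37260, of LOC_Os08g39850 and of HPL3 kept their calls without any 1 library, while each of the other 4 calls was lost in at least 1 such fit.

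**Figure D1:**
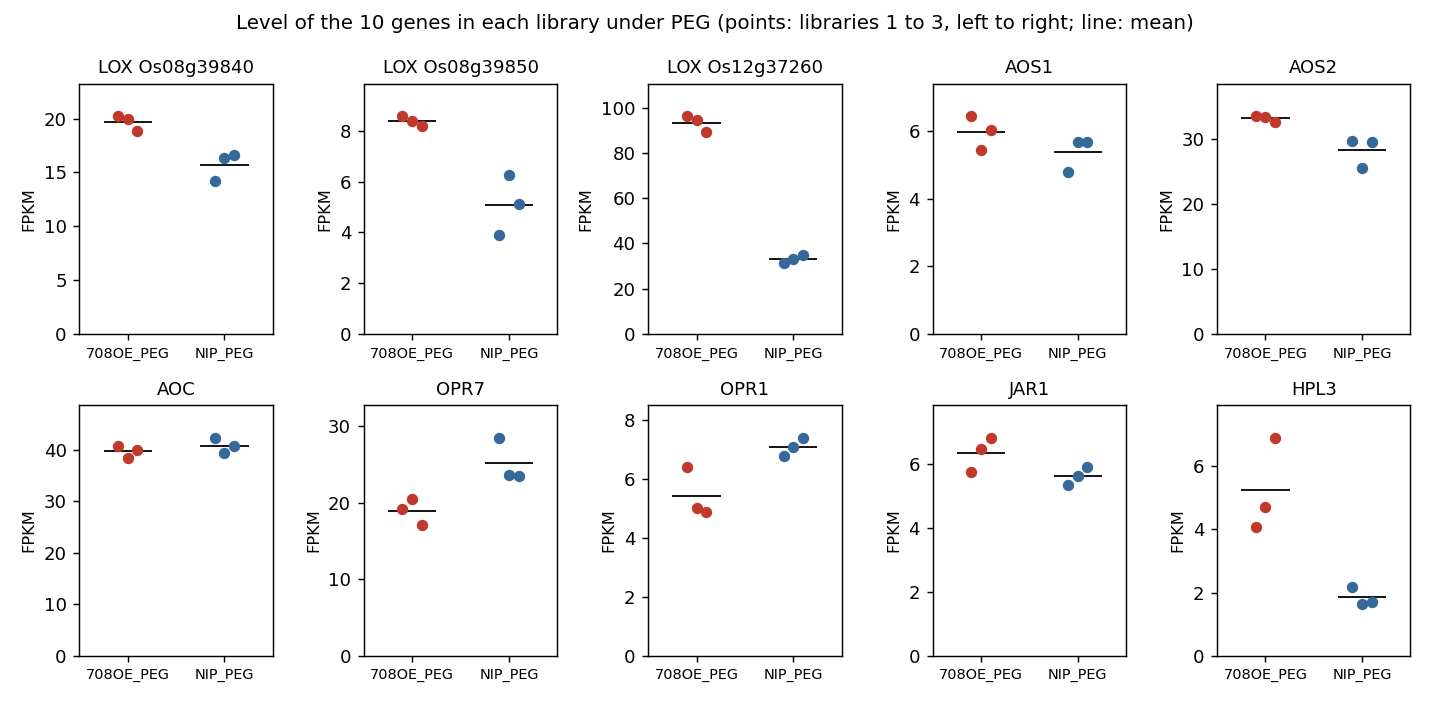
FPKM (linear axis from 0) of the 10 genes in each library, 708OE_PEG left of NIP_PEG, with points for libraries 1 to 3 and a line for the mean. The widest gap between the genotypes is that of the lipoxygenase LOC_Os12g37260, at 89.2 to 96.2 in 708OE_PEG and 31.5 to 34.9 in NIP_PEG, whereas the points of AOC, AOS1 and JAR1 overlap.

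On the FPKM and log2(FPKM + 1) scales, the largest difference among the 10 genes was in the lipoxygenase LOC_Os12g37260 on chromosome 12. It had an FPKM of 96.2, 94.8 and 89.2 in 708OE_PEG and of 31.5, 33.3 and 34.9 in NIP_PEG, and the lowest 708OE_PEG library was more than 50 FPKM above the highest NIP_PEG library. The means were 93.4 ± 3.68 in 708OE_PEG and 33.2 ± 1.71 in NIP_PEG (SD, n = 3 each), a ratio of 2.81, against 2.84 for HPL3. The log2 fold change was 1.46 (SE 0.07, adjusted p = 5.0e-06 in limma), and only 0.657% of the tested genes had a larger rise. Depth was no limit for this gene, which drew 7151 to 9042 reads in 708OE_PEG and 3057 to 4635 in NIP_PEG. It was listed here by family alone, with no gene name.

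The other lipoxygenases, LOC_Os08g39840 and LOC_Os08g39850, have neighbouring locus numbers on chromosome 8. RefSeq lists CM-LOX1 and CM-LOX2 on that chromosome, with spans of 8022 and 9141 bases, but the tables do not tie them to these loci by number. LOC_Os08g39840 read 20.2, 20.0 and 18.9 in 708OE_PEG and 14.2, 16.3 and 16.6 in NIP_PEG, so that its groups stood apart by a narrow margin. Its log2 fold change was 0.31 (SE 0.08, adjusted p = 0.016 in limma), and the call was lost without 708OE_PEG replicate 1 (adjusted p = 0.067) or 2 (0.065) and with these replicates as 1 sample (0.062). LOC_Os08g39850 read 8.57, 8.37 and 8.19 in 708OE_PEG and 3.90, 6.26 and 5.12 in NIP_PEG. The 708OE_PEG libraries of LOC_Os08g39850 were nearly level while those of NIP_PEG were spread. Its log2 fold change was 0.64 (SE 0.13, adjusted p = 0.0076 in limma), and 0.41 with a pseudocount of 5. Reads may be split between such neighbouring relatives, so single values of this pair are uncertain.

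Because these 3 lipoxygenases rose unequally, the make-up of their summed transcript shifted. LOC_Os12g37260 gave 77.0%, 77.0% and 76.7% of the summed FPKM of the 3 genes in 708OE_PEG and 63.5%, 59.6% and 61.6% in NIP_PEG. In every library of either genotype it was the main form of the 3, and its share in 708OE_PEG lay above that in NIP_PEG throughout. LOC_Os08g39840 took 16.2% ± 0.0374 in 708OE_PEG and 29.0% ± 0.377 in NIP_PEG (SD, n = 3 each). Counted in reads rather than per length, the share of LOC_Os12g37260 was 69.4% ± 0.171 in 708OE_PEG and 52.5% ± 2.19 in NIP_PEG (SD, n = 3 each). These shares are ratios within a library and so do not depend on how libraries were scaled. The summed level of the 3 genes was 121 ± 4.59 in 708OE_PEG and 54.1 ± 3.87 in NIP_PEG (FPKM, SD, n = 3 each).

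The allene oxide synthases, cytochrome P450 enzymes that commit the hydroperoxide to jasmonate, moved little. AOS2 (LOC_Os03g12500), the more abundant, read 33.6, 33.5 and 32.7 in 708OE_PEG and 29.8, 25.7 and 29.6 in NIP_PEG. Its groups did not overlap, but the log2 fold change was 0.23 (SE 0.07, adjusted p = 0.045 in limma), the weakest of the 7 calls. The call was lost without 1 of NIP_PEG replicates 2 (adjusted p = 0.076) and 3 (0.075) or of 708OE_PEG replicates 1 (0.13), 2 (0.13) and 3 (0.1), and with 708OE_PEG replicates 1 and 2 as 1 sample (0.13). After removal of a length trend the log2 fold change was 0.14 (adjusted p = 0.21 in limma). AOS1 (LOC_Os03g55800) read 6.43, 5.44 and 6.02 in 708OE_PEG and 4.78, 5.67 and 5.67 in NIP_PEG, and the groups overlapped. Its log2 fold change was 0.13 with a 95% interval from -0.08 to 0.33 (adjusted p = 0.29 in limma). AOS1 made up 15.2% ± 1.1 of the summed level of both synthases in 708OE_PEG and 16.0% ± 2.14 in NIP_PEG (SD, n = 3 each).

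AOC (LOC_Os03g32314), the cyclase that sets the active stereoisomer of OPDA, is a single-copy gene in rice. It read 40.8, 38.4 and 39.9 in 708OE_PEG and 42.3, 39.3 and 40.6 in NIP_PEG, with overlapping groups. The log2 fold change was -0.04 with a 95% interval from -0.18 to 0.10 (adjusted p = 0.67 in limma). The sign turned under quantile normalization (0.03) and when scaled by the table's read totals (0.07). The length implied for AOC was 2766 bases against 1429 in the reference, so the gene model counted here and the reference gene differ. AOC had the highest FPKM of the 10 genes in NIP_PEG and was second to LOC_Os12g37260 in 708OE_PEG. In both genotypes AOS1 and JAR1 were neighbours in the order of levels, with ranges that overlapped.

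**Figure D2:**
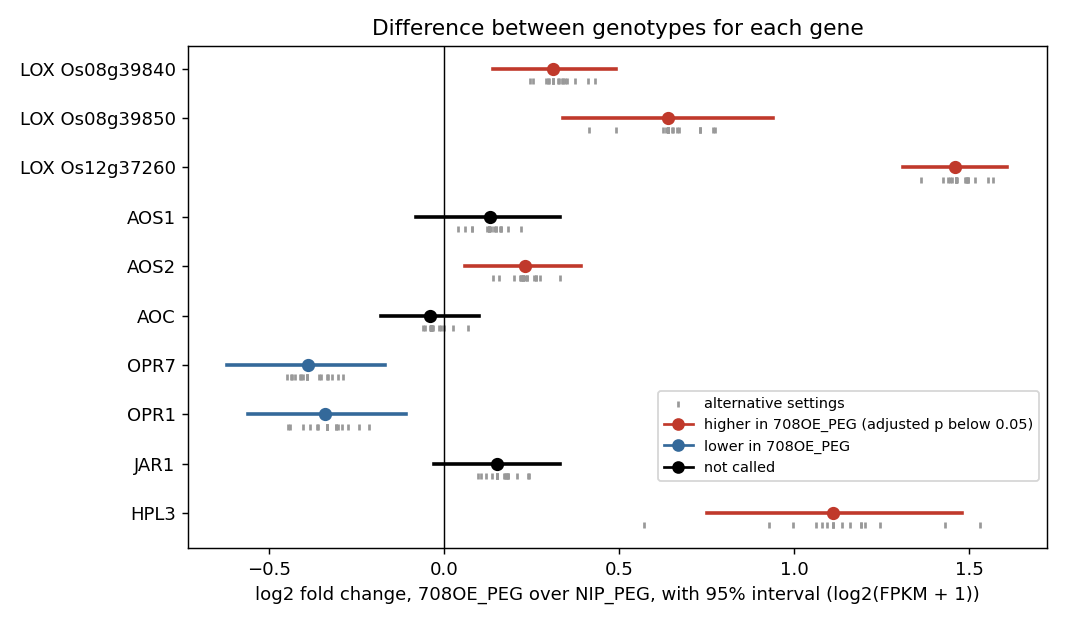
Log2 fold change of each gene, 708OE_PEG over NIP_PEG, with its 95% interval from limma, and grey ticks below each for the alternative settings. The lipoxygenases and HPL3 lie to the right of 0, OPR7 and OPR1 to the left, and the ticks of HPL3 reach from 0.57 (pseudocount of 5) to 1.53 (voom on whole reads).

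The reductases OPR7 and OPR1 differed in the opposite direction from the 3 lipoxygenases. OPR7 (LOC_Os08g35740), the peroxisomal reductase of rice that makes the precursor of jasmonic acid, read 19.2, 20.5 and 17.0 in 708OE_PEG and 28.4, 23.6 and 23.5 in NIP_PEG. Every 708OE_PEG library was below every NIP_PEG library. The log2 fold change was -0.39 (SE 0.10, adjusted p = 0.017 in limma), and the call was lost without 708OE_PEG replicate 1 (adjusted p = 0.052) or 3 (0.071). OPR1 (LOC_Os06g11290), of the group of reductases not thought to serve jasmonate synthesis, read 6.41, 5.01 and 4.87 in 708OE_PEG and 6.76, 7.08 and 7.38 in NIP_PEG. Library 1 of 708OE_PEG came close to the lowest NIP_PEG library. The log2 fold change of OPR1 was -0.34 (SE 0.10, adjusted p = 0.032 in limma), and with a pseudocount of 5 it was -0.21. That call was lost without NIP_PEG replicate 2 (adjusted p = 0.05) or 3 (0.1) or 708OE_PEG replicate 2 (0.11) or 3 (0.12), and when scaled by the table's read totals (log2 fold change -0.24, 0.091). It rested on 108 to 140 reads a library in 708OE_PEG and 186 to 279 in NIP_PEG. The reference carries the name OPR1 at a pair of genes on chromosome 6, so that reads of near copies may be split. The ratio of OPR7 to OPR1 was 3.53 ± 0.551 in 708OE_PEG and 3.57 ± 0.552 in NIP_PEG (SD, n = 3 each).

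Set against each other within a library, the 3 lipoxygenases and OPR7 were further apart in 708OE_PEG. The summed FPKM of the 3 lipoxygenases was 6.44 ± 0.415 times that of OPR7 in 708OE_PEG and 2.18 ± 0.374 times in NIP_PEG (SD, n = 3 each). Against the summed synthases AOS1 and AOS2 it was 3.12, 3.16 and 3.01 times in 708OE_PEG and 1.43, 1.78 and 1.61 times in NIP_PEG. Neither ratio overlapped between the genotypes. That repeats the rise of the lipoxygenases, mainly of LOC_Os12g37260, and the fall of OPR7, and is no further result. Both ratios were outside the plan. Transcript ratios say nothing of enzyme amounts or of hormone, which were not measured in these files.

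JAR1 (LOC_Os05g50890), the enzyme that conjugates jasmonic acid to isoleucine, read 5.76, 6.48 and 6.81 in 708OE_PEG and 5.33, 5.61 and 5.91 in NIP_PEG. The groups overlapped by a single library, and the log2 fold change was 0.15 with a 95% interval from -0.03 to 0.33 (adjusted p = 0.17 in limma). The ratio of JAR1 to AOC was 0.160 ± 0.0165 in 708OE_PEG and 0.138 ± 0.0105 in NIP_PEG (SD, n = 3 each), with overlapping libraries.

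HPL3 (LOC_Os02g02000) opens the competing branch, as it cleaves the 13-hydroperoxide to an aldehyde of the green leaf volatiles. It read 4.08, 4.72 and 6.89 in 708OE_PEG and 2.17, 1.65 and 1.71 in NIP_PEG. Every 708OE_PEG library was above every NIP_PEG library, and library 3 of 708OE_PEG stood highest. The log2 fold change was 1.11 (SE 0.16, adjusted p = 0.0017 in limma), and 0.93 without 708OE_PEG replicate 3. On this scale it understates a low gene: with a pseudocount of 0.1 it was 1.43, with voom on whole reads 1.53 and with a pseudocount of 5 it was 0.57. HPL3 had the fewest reads of the 10 genes, 49 to 113 in 708OE_PEG and 31 to 37 in NIP_PEG, by the smallest whole-read solution. That solution implied a length of 904 bases. If the true counts shared a common factor, reads and length would both be a multiple of these, so the read numbers of HPL3 are lower bounds. The ratio of HPL3 to the summed synthases was 0.102, 0.121 and 0.178 in 708OE_PEG and 0.0626, 0.0525 and 0.0486 in NIP_PEG, with no overlap. LOC_Os02g12680, listed as HPL1 and not in this ratio, was more abundant than HPL3. Its mean FPKM was lower in 708OE_PEG (22.8) than in NIP_PEG (34.8). The ratio thus describes HPL3 alone and not the lyase branch. HPL3 held 11.7% ± 3.05 of the summed level of HPL3, AOS1 and AOS2 in 708OE_PEG and 5.17% ± 0.648 in NIP_PEG (SD, n = 3 each). No RefSeq gene was compared with this locus.

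**Figure D3:**
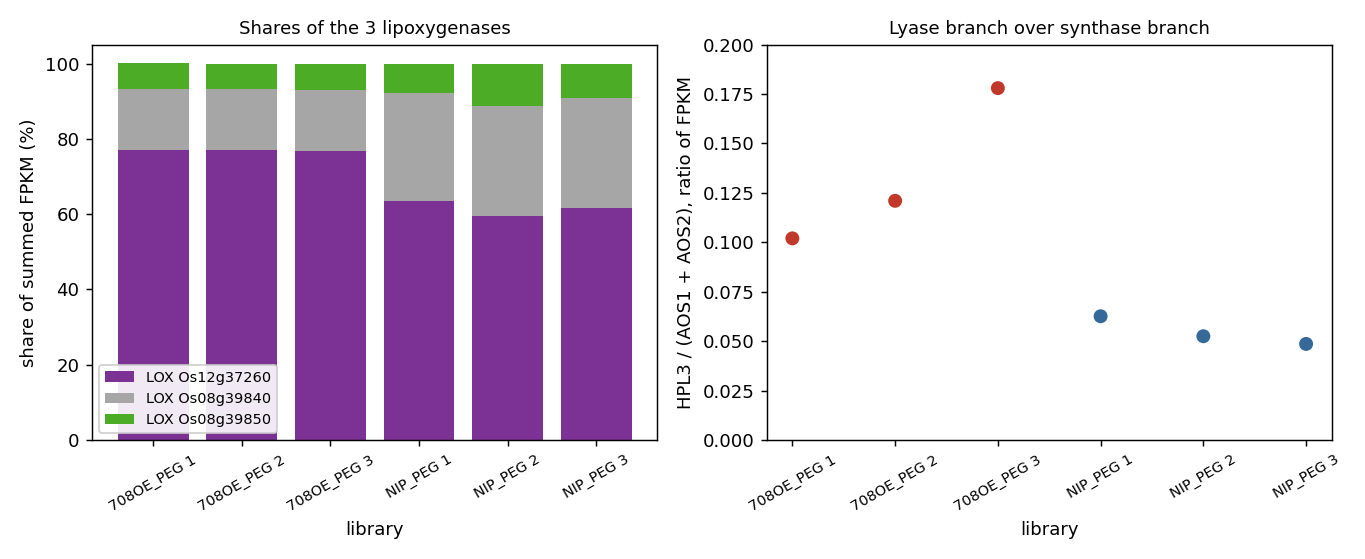
Left, share (%) of each of the 3 lipoxygenases in their summed FPKM for every library, 708OE_PEG libraries before NIP_PEG libraries. Right, ratio of HPL3 to AOS1 plus AOS2 (FPKM) in the same libraries, between 0.102 and 0.178 in 708OE_PEG and between 0.0486 and 0.0626 in NIP_PEG. The lyase branch of the panel title stands for HPL3 alone. The more abundant LOC_Os02g12680, listed as HPL1, is not in this ratio and was lower in 708OE_PEG (mean FPKM 22.8) than in NIP_PEG (34.8).

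In the authors' deposited table, the log2 fold changes of the same genes were 1.49 for LOC_Os12g37260, 0.71 for LOC_Os08g39850, 0.32 for LOC_Os08g39840 and 1.54 for HPL3. The authors' deposited table gave 0.23 for AOS2, -0.41 for OPR7, -0.40 for OPR1, 0.14 for AOS1, 0.18 for JAR1 and -0.04 for AOC. The authors' p-values, from a test that the file headers do not name, were 0.18 for AOS1, 0.5 for AOC and 0.018 for JAR1. JAR1, not called in limma, was thus below 0.05 there, and whether those values were adjusted is not stated. Exact two-sided permutation tests of the 6 values of single genes gave p = 0.1 for each of the 7 genes called, the smallest that 3 libraries against 3 allow. Those of AOS1, AOC and JAR1 gave 0.3, 0.5 and 0.2.

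Other lipoxygenases of rice were listed by locus, 11 in all, of which 8 were tested. Of these 2 rose, 1 fell and 5 did not pass, with a median log2 fold change of 0.02, where 14.3% of all tested genes rose and 20.0% fell. LOC_Os02g10120 read 11.6, 11.6 and 10.8 in 708OE_PEG and 5.01, 4.74 and 6.08 in NIP_PEG (log2 fold change 0.98, SE 0.09, adjusted p = 0.00023 in limma). LOC_Os05g23880 read 6.82, 6.41 and 7.09 in 708OE_PEG and 2.98, 3.02 and 2.86 in NIP_PEG (log2 fold change 0.98, SE 0.07, adjusted p = 5.9e-05 in limma). For both, every 708OE_PEG library was above every NIP_PEG library. LOC_Os03g49380, the most abundant of the 11, went the other way with 22.1 ± 0.378 in 708OE_PEG and 32.8 ± 3.39 in NIP_PEG (SD, n = 3 each; log2 fold change -0.55, adjusted p = 0.0021 in limma). The list's 2 rises were 4 when scaled by the table's read totals, where 19.8% of all tested genes rose, and 3 after removal of a length trend. LOC_Os12g37320, the next lipoxygenase by locus number after LOC_Os12g37260, did not pass (log2 fold change -0.13, adjusted p = 0.3 in limma).

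Among the 10 tested loci nearest to LOC_Os12g37260 by number, 2 were higher and 1 lower, where 14.3% of all tested genes were higher and 20.0% lower. These counts are near those shares and say nothing particular of the neighbours. Log2 fold changes of the 10 loci ran from -0.26 to 0.41. The rise of LOC_Os12g37260, 1.46, was larger than that of each of these 10. Over 6 libraries, the tested genes of mean FPKM at least 5 whose log2(FPKM + 1) followed it most closely were LOC_Os05g09724, LOC_Os06g37300 and LOC_Os07g33780, each with Pearson r above 0.999. That is a description of 2 separate groups of libraries, and 997 of 10042 such genes had an r above 0.9.

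Of the pair of other CYP74 genes, the P450 family of AOS and HPL, the tested one fell, where 20.0% of all tested genes fell. LOC_Os02g12680, listed as HPL1 and compared with the RefSeq gene AOS3, read 22.9, 23.2 and 22.1 in 708OE_PEG and 31.9, 35.6 and 36.9 in NIP_PEG (log2 fold change -0.59, SE 0.07, adjusted p = 0.00079 in limma). Its direction was thus opposite to that of HPL3. Of 8 further OPR-like genes 5 were tested and 0 passed in limma, where 34.3% of all tested genes passed. With 5 genes, 0 calls cannot be set apart from that share. Their log2 fold changes ran from -0.36 to 0.31. At an unadjusted p below 0.05 there was 1 of them (LOC_Os01g27230), and voom on whole reads called 0. The most abundant, LOC_Os06g11210, read 9.08 ± 0.863 in 708OE_PEG and 8.75 ± 0.558 in NIP_PEG (SD, n = 3 each). Genes of substrate supply did not pass either: the plastid desaturase gene FAD7 (LOC_Os03g18070) had a log2 fold change of -0.18 (adjusted p = 0.28 in limma) and FAD8 (LOC_Os07g49310) of 0.04 (0.81).

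Transcripts for the closing peroxisomal steps were lower along with OPR7. Of 7 tested genes of acyl-CoA oxidase, multifunctional protein and ketoacyl-CoA thiolase, enzymes of beta-oxidation that also break down other fatty acids, 6 fell and 1 did not pass, against 20.0% of all tested genes that fell. Their median log2 fold change was -0.41, and -0.31 when scaled by the table's read totals, with 6 falls in each. The thiolase gene LOC_Os02g57260 had an FPKM of 152.7 ± 6.42 in 708OE_PEG and 204.2 ± 11.5 in NIP_PEG (SD, n = 3 each; log2 fold change -0.42, adjusted p = 0.0036 in limma). The acyl-CoA oxidase gene LOC_Os06g24704 had the widest fall, with 10.98 ± 0.211 in 708OE_PEG and 16.2 ± 1.53 in NIP_PEG (SD, n = 3 each; log2 fold change -0.51, adjusted p = 0.0023 in limma).

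Genes of jasmonate conjugation and turnover, of perception, of JAZ repressors and of output were lower or did not pass. Of 26 tested, 0 rose in limma, 0 were higher at an unadjusted p below 0.05, and voom on whole reads called 0 higher, where 14.3% of all tested genes rose in limma. The falls among genes of turnover and of perception, given next, were 1 of 5 and 2 of 7, beside 20.0% of all tested genes, and say nothing particular of these lists. Of 5 genes of conjugation and turnover 1 fell: CYP94C2a (LOC_Os11g05380), a P450 of hormone oxidation, had a log2 fold change of -0.55 (adjusted p = 0.0074 in limma). The most abundant, CYP94B5 (LOC_Os01g63930), read 33.3 ± 1.73 in 708OE_PEG and 34.4 ± 1.84 in NIP_PEG (SD, n = 3 each). Of 7 tested genes of perception and jasmonate-linked factors 2 fell, the MYB gene JAmyb (LOC_Os11g45740, log2 fold change -0.50, adjusted p = 0.0016 in limma) and the bHLH gene LOC_Os03g53020 (-0.33, adjusted p = 0.02). The receptor gene COI1b (LOC_Os05g37690) read 59.4 ± 2.32 in 708OE_PEG and 57.8 ± 2.60 in NIP_PEG (SD, n = 3 each), and the factor gene MYC2 (LOC_Os10g42430) read 39.8 ± 2.82 in 708OE_PEG and 44.6 ± 1.95 in NIP_PEG. Of 12 tested JAZ repressor genes, which jasmonate itself induces, 8 fell and 4 did not pass, where 20.0% of all tested genes fell. When scaled by the table's read totals 6 fell, where 11.2% of all tested genes did. JAZ12 (LOC_Os10g25290), the most abundant, read 104.5 ± 3.20 in 708OE_PEG and 150.6 ± 9.84 in NIP_PEG (SD, n = 3 each; log2 fold change -0.52, adjusted p = 0.0013 in limma), and JAZ10 (LOC_Os03g08330), JAZ11 (LOC_Os03g08320) and JAZ13 (LOC_Os10g25230) had log2 fold changes of -0.54, -0.82 and -0.68. JIOsPR10 (LOC_Os03g18850), a protein gene named for induction by jasmonate, had a log2 fold change of -0.40 (adjusted p = 0.0052 in limma), and the terpene synthase gene TPS3 (LOC_Os02g02930) did not pass (0.13, adjusted p = 0.31).

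**Figure D4:**
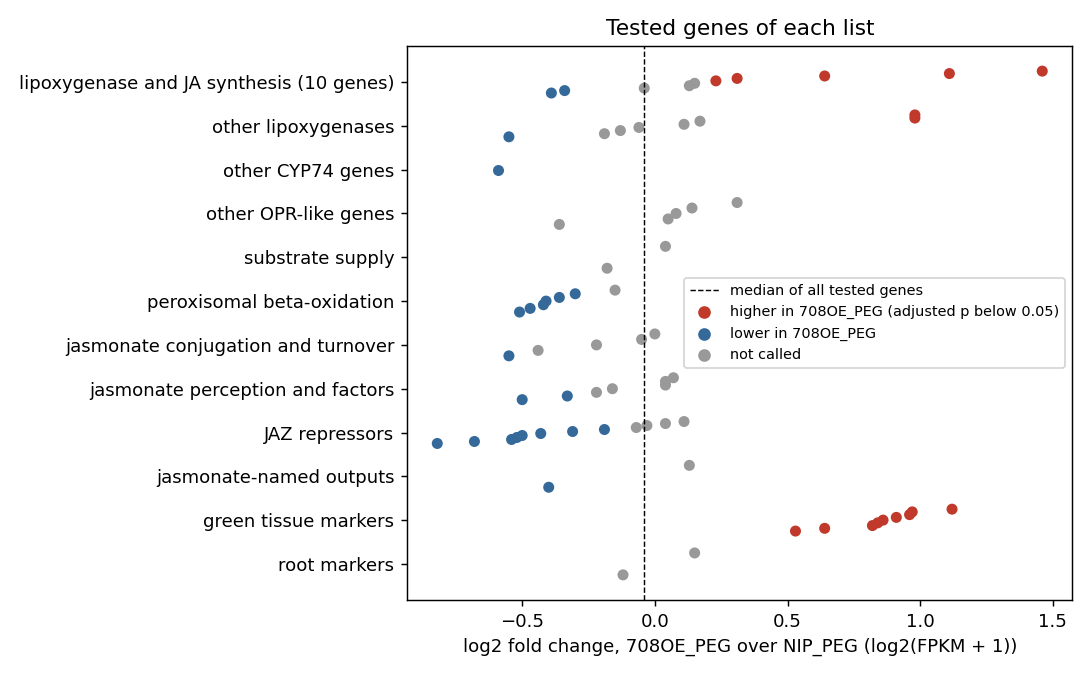
Log2 fold change, 708OE_PEG over NIP_PEG, of each tested gene in the 12 lists, 1 row a list, with a dashed line at the median of all tested genes (-0.04). The beta-oxidation and JAZ genes that passed lie left of the line, the green tissue markers right of it, and the 10 lipoxygenase and jasmonate synthesis genes on both sides.

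The early steps of the pathway run in plastids, and markers of green tissue moved in the same libraries. The light-harvesting gene LHCA1 (LOC_Os06g21590) had a log2 fold change of 1.12 and the Rubisco small subunit gene LOC_Os12g19470 of 0.91 (adjusted p = 0.00022 and 0.00031, limma), and the 9 markers had a median of 0.86. The most abundant, the light-harvesting gene LOC_Os09g17740, had 0.82 (adjusted p = 0.0065 in limma), the photosystem gene PSBS1 (LOC_Os01g64960) 0.97 and the Calvin cycle gene GAPA (LOC_Os04g38600) 0.96. In whole seedlings more cells of a type and more RNA per cell cannot be told apart. The part of the green tissue markers in the rises of the lipoxygenases, AOS2 and HPL3 was not tested.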

How the data were processed

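Polyadenylated RNA of whole seedlings was selected on oligo(dT) beads and made into stranded libraries, per the labels' protocols. Values are FPKM as the authors deposited them, 1 column a library. Beside them stand a log2 fold change and a p-value of 708OE_PEG over NIP_PEG, also the authors' own, per the file headers. Alignment with HISAT2 and counting with featureCounts are named in the submitters' processing notes, as is DESeq2, with no roles or versions. Build, annotation, strand setting and the FPKM denominator were not given in those sources. The wild-type columns are headed NIP2_PEG, a name the labels do not use. They were assigned to NIP_PEG, the only wild-type group in the labels, by group and repeat number, and it was taken, but is not stated, that a column holds both lanes of a repeat. Each was counted as 1 library.

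The FPKM steps let whole reads be recovered for 27843 of the 31263 genes above 0 (tolerance 0.02 of a read). Reads counted were 0.957 to 0.982 times the implied library size in 708OE_PEG and 1.03 to 1.05 times in NIP_PEG. A read in a 1 kb gene was worth 0.0552 to 0.0752 FPKM in 708OE_PEG and 0.0402 to 0.0576 in NIP_PEG, and precision is set by this depth and by 3 libraries a genotype. The test was limma 3.58.1 in R 4.3.3 on log2(FPKM + 1), with a variance trend, for genes that reached an FPKM of 1 in 3 or more libraries, two-sided, Benjamini-Hochberg adjusted over all tested genes. Fold changes on this scale understate changes of low genes. The fit and the read recovery were also run on simulated data. These were built from the recovered lengths and implied library sizes, and so cannot show whether those are right.

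The 10 genes and the other lists were chosen with earlier results of these data known, and 86 of 87 listed loci were in the table. Besides the 10 genes, each list's most abundant gene and up to 4 called genes with an absolute log2 fold change of at least 0.5 were to be named. The neighbours of LOC_Os12g37260 by locus number, FAD8, LOC_Os12g37320, LOC_Os01g27230, LOC_Os03g53020, MYC2, TPS3, LSI1, LSI2 and NRT2.1 were added after their values were seen. The locus numbers matched no ID of the RefSeq table (assembly ASM3414082v1). Names were given to the listed loci from general knowledge of rice genes. RefSeq genes of that name, or of another name taken for the locus, were the only check. It was by chromosome for 41 loci and by gene length where a length was implied. A name is thus less certain than its locus number. No sequences are printed, as none were in the tables used. The alternatives tried are other pseudocounts, filters and scalings, voom on whole reads, removal of a length trend, array weights, a replicate block, and leaving out or merging libraries.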

Additional observations from a re-analysis of the deposited data

How the results depend on the processing

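The number of genes called over all genes was 3893 with 708OE_PEG replicates 1 and 2 as 1 sample and from 3378 to 7148 when 1 library was left out. The number of the 10 genes called higher was 3 with that pair as 1 sample and from 3 to 5 with 1 library left out. The number called lower was 1 without a filter on low genes, when scaled by the table's read totals and with array weights by genotype, and from 0 to 2 with 1 library left out. The lost calls were those of LOC_Os08g39840, AOS2, OPR7 and OPR1, and each of these kept its sign under every setting run. LOC_Os12g37260 kept its call and ranged from 1.36 to 1.57 over 18 settings, LOC_Os08g39850 from 0.41 to 0.77, and HPL3 from 0.57 to 1.53 over the 17 settings that tested it. A mean FPKM of at least 5 left HPL3 out. Without a filter on low genes, AOS2 (adjusted p = 0.063 in limma), OPR1 (0.067) and the light-harvesting gene LOC_Os09g17740 (0.055) lost their calls.

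AOC, not called in any setting, had a log2 fold change of 0.03 under quantile normalization and of 0.07 when scaled by the table's read totals. LOC_Os06g11210, likewise not called, had -0.06 after removal of a length trend and from -0.02 to 0.10 with 1 library left out. LOC_Os01g63930 had 0.06 when scaled by the table's read totals and 0.00 after removal of a length trend. The cause of these shifts was not tested. With the repeat number as a replicate block 4 of the 10 genes were higher and 2 lower, 5619 genes were called in all, and AOS2 lost its call (adjusted p = 0.076). The numbers do not pair the libraries: same-numbered libraries correlated between -0.045 and -0.002, and 0 of 6 libraries correlated best with its own number. HPL3 and OPR1, with the fewest reads, are the genes that depth limits most.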
